A study of Mus musculus with 2 samples.

Results

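The Schwann myelin programme genes described here are Mbp, Pmp22, Mal, Egr2, Prx, Cnp, Pou3f1 and Pou3f2, 8 of the 28000 genes in the count matrices. They were taken by symbol from a named list, and each of the 8 symbols was present in both matrices. Schwann cells arise from the neural crest through a precursor stage and an immature stage, and those that pair with a large axon become promyelinating and then wrap it. The POU factors Pou3f1 (Oct6) and Pou3f2 (Brn2) act in promyelinating cells upstream of the zinc finger factor Egr2 (Krox20), which together with Sox10 drives genes for myelin proteins and lipids. In embryonic skin, glia of this lineage line the cutaneous nerves, and their precursors can also give rise to melanocytes.

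The study asked what the histone chaperone HIRA does in the melanocyte lineage, and these libraries hold single tdTomato+ cells sorted from the trunk skin of E15.5 mouse embryos and sequenced with a 10x Genomics kit that counts the 3' ends of transcripts. One library came from TyrCre::Hira wt/wt:tdTomato (HIRA WT) skin and the other from TyrCre::Hira fl/fl:tdTomato (HIRA KO) skin, so there is 1 library per genotype and there are no replicates. Both groups carry Cre under the Tyr promoter, which is also active outside the melanocytic lineage, and the tdTomato reporter, on a mixed background close to C57BL/6J. The match of these libraries to the genotypes of the study's methods was inferred from the labels Wild type and HIRA knockout.

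The HIRA WT library held 7073939 unique molecular identifiers (UMIs) in 1546 barcodes and the HIRA KO library 5049514 UMIs in 846 barcodes. After filtering, 1540 WT cells and 828 KO cells were left, and the libraries shared 0 barcodes. Xist had 16822 UMIs in the WT library and 23 in the KO library, whereas the Y-linked gene Eif2s3y had 0 UMIs in the WT library and 220 in the KO library. The WT cells were therefore female and the KO cells male, and genotype, sex and library cannot be told apart in any comparison below. Hira itself was counted at 11.6 UMIs per 1000000 UMIs (CPM; 95% interval 9.24 to 14.4) in the WT library and 10.0 CPM (7.43 to 13.2) in the KO library. In melanoblast-like cells the log2 ratio of KO over WT was -1.97 (-4.31 to -0.30), from 35 WT and 3 KO UMIs, and in glial-like cells -0.55 (-1.89 to 0.68), from 18 and 9. Counts from 3' ends need not show the loss of a floxed exon, so the Hira level is a weak check of the label. Intervals are exact Poisson limits for CPM, Clopper-Pearson limits for shares of cells and conditional binomial limits for ratios, each at 95%, and they cover counting error only.

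Glial-like cells were recognised by 12 markers, among them Sox10, Erbb3 and Fabp7, and numbered 447 in the WT library (median depth 3372 UMIs) and 254 in the KO library (median 4208 UMIs). All 12 markers were detected in the glial-like cells of both libraries, with summed levels of 4156 CPM in WT and 3880 CPM in KO. They formed 5 clusters, built without the 8 genes and without the myelin gene lists used below, and each is called by a leading gene or by its markers. The Sostdc1-led cluster had 5 of 13 promyelinating markers raised over other glia, among them Dhh, Cldn19, Ugt8a and Mag, more than any other glial-like cluster. The Pcdh20-led cluster had 3 of 12 Schwann cell precursor markers raised (Pcdh20, Tfap2b and Pax3) and 1 promyelinating marker (Gldn), and the cycling cluster had 12 of 12 cycling markers raised. The Cpm-led cluster, with Itga8 and Nsg2 among its leading genes, had 1 promyelinating marker raised (Gjc3) and 1 precursor marker (Ednrb). The Grb14-led cluster, with Gm29865 and Crabp2 among its leading genes, had none of these markers raised.

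The cluster make-up of the glia differed between the libraries. The Cpm-led cluster held 34 of the 447 WT glial-like cells (7.61%, 5.33 to 10.5) and 60 of the 254 KO cells (23.6%, 18.5 to 29.3), and the intervals did not overlap. The Grb14-led cluster lay the other way, with 81 WT cells (18.1%) and 16 KO cells (6.30%). The Sostdc1-led cluster held 116 WT cells (26.0%, 22.0 to 30.3) and 57 KO cells (22.4%, 17.5 to 28.1), a difference not detectable at this depth. The Pcdh20-led cluster held 148 WT cells (33.1%) and 90 KO cells (35.4%), and the cycling cluster 68 (15.2%) and 31 (12.2%).

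Most of the 8 genes were read mainly in glia. Mbp, which encodes the basic protein that joins the cytoplasmic faces of compact myelin, had 90.8% of its WT UMIs and 85.8% of its KO UMIs in glial-like cells. Mal, a membrane protein of myelin and of epithelial sorting routes, had 96.7% of its WT UMIs and 64.7% of its KO UMIs there, and 93 of its 110 other KO UMIs lay in 1 keratinocyte-like cell. Cnp, an enzyme of non-compact myelin, had 85.8% in WT and 81.0% in KO. Pmp22, a tetraspan protein of compact peripheral myelin that many other cells also make, had only 52.2% of its WT UMIs and 46.2% of its KO UMIs in glia. Pou3f1 had 96.1% in WT and 84.3% in KO. The scarce transcripts followed with 71.4% of 28 WT UMIs and 68.8% of 16 KO UMIs for Prx, which encodes the periaxin that links the Schwann cell membrane to its cytoskeleton. Egr2, known also as an early response gene outside glia, had 39.1% of 23 WT UMIs and 58.3% of 24 KO UMIs in glia. Pou3f2 had 0 UMIs in the WT library and 2 in the KO library, both in glial-like cells, and the 0 among WT glia allows a level of up to 1.84 CPM at a floor of 3 counts.

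Melanoblast-like cells, a class that should lack myelin transcripts, served as the background for shares of cells with a UMI, without telling free RNA, doublets and low expression apart. An Mbp UMI was seen in 29.8% of WT glial-like cells (median 3372 UMIs) and in 2.24% of WT melanoblast-like cells (median 4343 UMIs). For Mal the shares were 51.5% and 0.935%. Cnp was detected in 48.8% of the WT glial-like cells and 4.30% of the melanoblast-like cells. Pou3f1 was detected in 33.3% and 0.935%, so for these genes the glial share stood far above that of deeper melanoblast-like cells. Pmp22 differed from them, with a UMI in 62.0% of the glial-like cells and in 107 of the 535 melanoblast-like cells. In the KO library (medians 4208 and 5654 UMIs) the glial and melanoblast-like shares were 31.1% and 0 for Mbp, the 0 of 139 cells allowing up to 2.16% at 3 counts. They were 42.1% and 3.60% for Mal, 42.1% and 2.16% for Cnp, and 55.5% and 1.44% for Pou3f1. For Pmp22 the KO shares were 61.8% of glia and 32 of 139 melanoblast-like cells.

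Pmp22 was spread over many classes outside glia. In the WT library it stood at 401 CPM in glial-like cells, 263 in mesenchymal-like cells (233 to 296), 151 in mast cell-like cells (110.5 to 203), 133 in macrophage-like cells (109.5 to 161), 68.5 in adipocyte-like cells and 49.7 in melanoblast-like cells (41.4 to 59.1). The mast cell-like and macrophage-like intervals overlapped, as did the adipocyte-like (46.5 to 97.2) and melanoblast-like intervals. The KO mesenchymal-like level was 293 CPM (266 to 322) and the KO melanoblast-like level 47.1 CPM, both within the intervals of WT. Among mesenchymal-like clusters, the Mfap4-led cells held Pmp22 at 380.4 CPM (WT) and 339 CPM (KO) and the Mfap5-led cells at 343 and 326.5 CPM, with intervals that overlapped those of whole glia. The KO macrophage-like cells, 35 in number, had 41.1 CPM (20.5 to 73.6), and the log2 ratio of KO over WT there was -1.70 (-2.74 to -0.80). Macrophage-like cells were not uniform, as Pmp22 was at 171 CPM (139 to 208) in the 96 WT cells of a Pf4-led cluster and at 35.2 CPM (15.2 to 69.4) in the 50 WT cells of a Plac8-led cluster. Their KO levels were 50.7 CPM (21.9 to 99.98) in 18 cells and 27.3 CPM (5.63 to 79.8) in 17 cells, so only in the Pf4-led cells did the KO and WT intervals lie apart. The KO order of classes differed from WT, with macrophage-like below melanoblast-like cells, although their intervals overlapped.

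Pou3f1 was also present in keratinocyte-like cells, a known site of this factor in skin. In the KO library it reached 92.1 CPM (71.8 to 116) over 81 keratinocyte-like cells with a median depth of 9113 UMIs, and 48.2% of them held a UMI. The WT library had only 12 such cells, with 2 Pou3f1 UMIs (24.1 CPM, 2.92 to 87.0). KO mesenchymal-like cells had 14.1 CPM and WT mesenchymal-like cells 0.940 CPM, from 21 and 1 UMIs. Of the KO UMIs, 16 lay in the Mfap4-led cluster, which held 118 KO and 22 WT cells, and within which the interval of the ratio held 0. Another 5 lay in the Crabp1-led cluster (101 KO and 170 WT cells), which had 0 WT UMIs and a lower 95% limit of the log2 ratio of 0.37. Mal looked high in KO keratinocyte-like cells at 130.2 CPM, but 93 of its 99 UMIs there lay in 1 cell, which had 15831 UMIs and was not called a doublet. Without that cell the Mal level was 8.06 CPM (2.96 to 17.5).

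**Figure D1:**
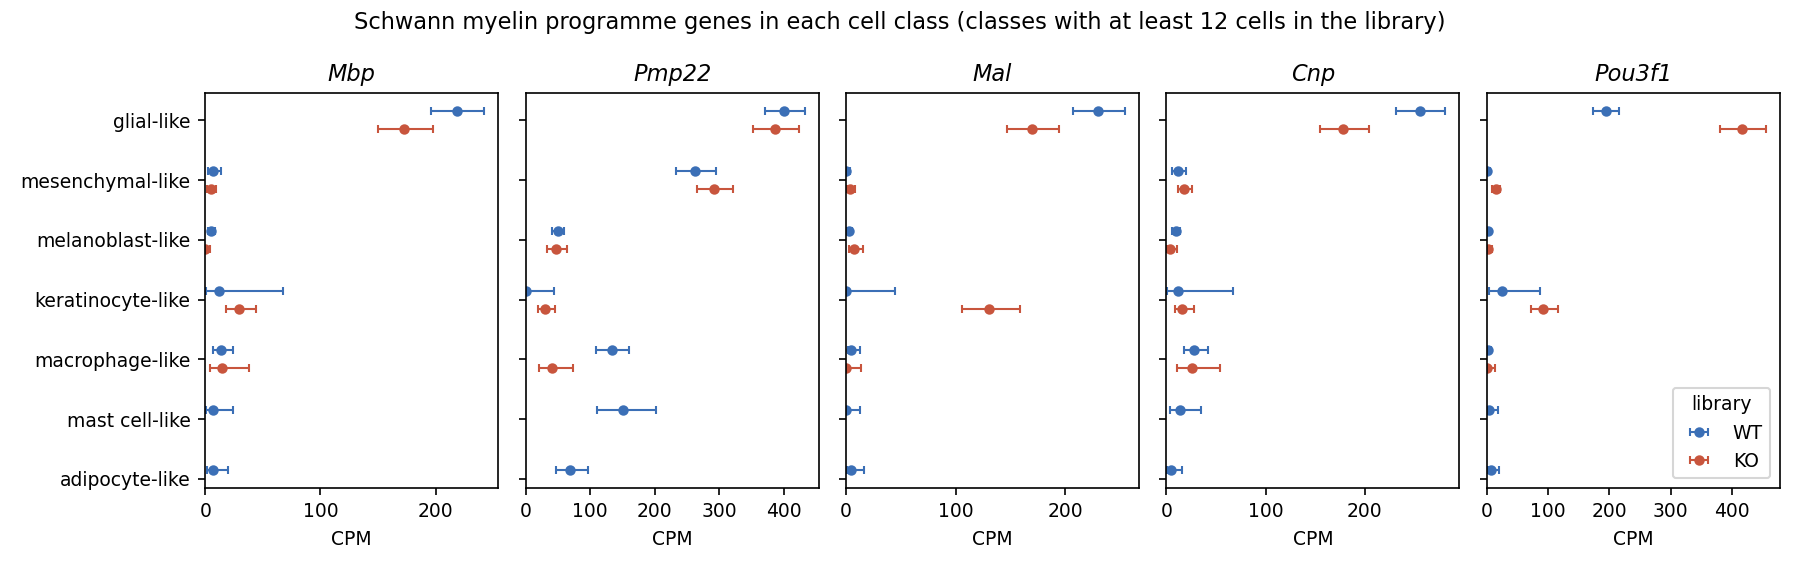
Level of Mbp, Pmp22, Mal, Cnp and Pou3f1 in CPM (x axis, linear, UMIs per 1000000 UMIs of the class) in each cell class with at least 12 cells in the library, for WT (blue) and KO (red), where points are CPM and bars exact 95% Poisson intervals. Glial-like cells had the highest level of each gene in both libraries, and the Mal point in KO keratinocyte-like cells rests on 93 UMIs of 1 cell.

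Within the glia, the genes for myelin proteins shared 1 peak, the Sostdc1-led cluster, in both libraries. The WT cells of this cluster held Mbp at 549.8 CPM (486 to 620.1) and the KO cells at 581 CPM (498 to 674). It followed at 191 CPM in the WT Grb14-led cluster (143 to 251), 71.2 CPM in the Cpm-led, 65.9 CPM in the cycling and 23.8 CPM in the Pcdh20-led cluster (11.9 to 42.6), and the intervals of the last 3 overlapped from neighbour to neighbour. The KO order was the same, with 83.0, 42.1, 38.3 and 20.4 CPM, although only the step below the Sostdc1-led cluster was larger than the intervals. Over other glial-like cells, Mbp in the Sostdc1-led cluster was 6.95-fold higher in WT and 16.3-fold higher in KO.

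In the Sostdc1-led cluster, Pmp22 reached 749 CPM in WT cells (674 to 830.3) and 905 CPM in KO cells (800.0 to 1019). The other WT clusters came in the order Grb14-led (379 CPM), Cpm-led (311), cycling (244) and Pcdh20-led (175), with overlapping intervals between each pair of neighbours. The KO order was the same, from 332 CPM down to 148.5 CPM. The lead of the Sostdc1-led cluster over other glia was 2.94-fold in WT and 4.22-fold in KO.

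Cnp was at 487.5 CPM (427 to 554) in the WT Sostdc1-led cluster and at 390.5 CPM (323 to 468) in the KO cluster. In WT it was next highest in the Grb14-led (309 CPM) and Cpm-led (258 CPM) clusters, whose intervals overlap, and low in the Pcdh20-led (93.1 CPM) and cycling (85.7 CPM) clusters. In KO the Cpm-led (165 CPM), Grb14-led (149 CPM) and cycling (115 CPM) clusters could not be ordered beyond counting error, and the Pcdh20-led cluster was lowest at 43.7 CPM, its interval meeting that of cycling cells. Cnp was 3.08-fold higher in the Sostdc1-led cluster than in other WT glia and 3.64-fold higher in KO.

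Mal, among the 4 abundant myelin protein genes, had the smallest WT lead in this cluster. It stood at 351 CPM (299.7 to 408) in the WT Sostdc1-led cluster, and at 201, 191 and 175 CPM in the Pcdh20-led, Grb14-led and cycling clusters, which overlapped one another. Its lowest WT level was 71.2 CPM (30.7 to 140.3) in the Cpm-led cluster. In KO it was at 424 CPM (353 to 504) in the Sostdc1-led cluster and at 38.9 CPM in the Cpm-led cluster, with 133 CPM in Grb14-led, 125 CPM in Pcdh20-led and 65.7 CPM in cycling cells between them. The fold over other glia was 1.96 in WT and 5.06 in KO.

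Egr2 and Prx were sparse, and nearly all of their glial UMIs lay in the same cluster. All 9 WT and all 14 KO glial Egr2 UMIs were in the Sostdc1-led cluster, at 18.7 CPM (8.54 to 35.4) and 46.7 CPM (25.6 to 78.4). Against a floor of 3 counts over the other glia of the library and with its own counts taken as exact, Egr2 was at least 7.16-fold higher in WT and at least 13.9-fold higher in KO. With counting error on both sides, the lower 95% limit of the log2 difference was 2.24 in WT and 3.31 in KO. Prx had 18 of its 20 WT glial UMIs and 8 of its 11 KO glial UMIs there, a log2 difference from other glia of 4.42 (2.36 to 7.58) in WT and 2.99 (0.94 to 5.54) in KO. No Egr2 or Prx UMI fell in the Cpm-led cluster of either library, where 3 counts would be 26.7 CPM in WT and 9.72 CPM in KO. This WT limit is above the WT Egr2 level of the Sostdc1-led cluster. The 16 KO Grb14-led cells also had no UMI of either gene. For them 3 counts would be 49.8 CPM, above the KO Sostdc1-led level of both genes.

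Pou3f1 had a different peak from the myelin protein genes. Its level was 747 CPM (596 to 925) in the WT Cpm-led cluster and 1014 CPM (905 to 1133) in the KO Cpm-led cluster, 4.89-fold and 4.86-fold higher than in other glia of the same library. In WT, cycling (221 CPM), Sostdc1-led (176) and Pcdh20-led (136) cells followed with overlapping neighbours, and the Grb14-led cluster was lowest at 62.5 CPM. In KO the order below the peak was cycling (312 CPM), Pcdh20-led (221), Sostdc1-led (147) and Grb14-led (133), again with overlapping neighbours. Both Pou3f2 UMIs of the KO library were in the Sostdc1-led cluster.

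Measured against all genes, the Sostdc1-led peak was common among the 5 genes with at least 50 UMIs. Of these, 3 (Mbp, Pmp22 and Cnp) were at least 2-fold higher in the Sostdc1-led cluster than in other WT glia, where 6.55% of 3896 genes tested were. In the KO library 4 of the 5, Mal included, passed the same fold, beside 7.54% of 3078 genes tested. The clusters were made without these genes, yet correlated genes shaped them, so the counts describe the cluster and test nothing.

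**Figure D2:**
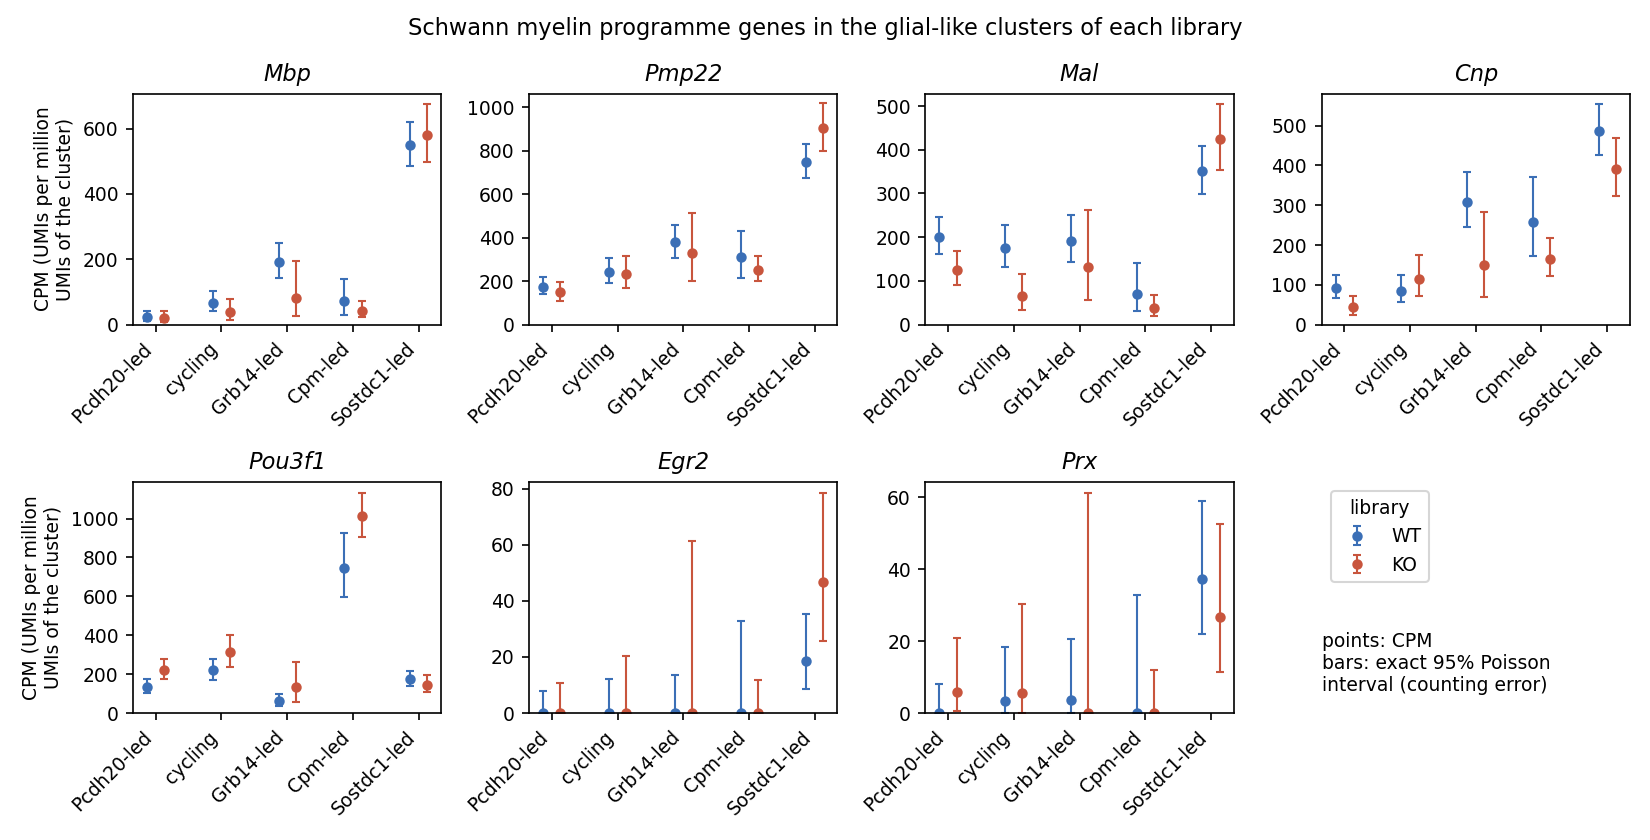
Level of 7 genes in CPM (y axis, linear from 0) in the 5 glial-like clusters (x axis) of the WT (blue) and KO (red) libraries, where points are CPM and bars exact 95% Poisson intervals. By point, Mbp, Pmp22, Mal, Cnp, Egr2 and Prx were highest in the Sostdc1-led cluster of both libraries, and Pou3f1 in the Cpm-led cluster. For Egr2 and Prx, a 0 in a small cluster sets only an upper limit.

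The Sostdc1-led cluster also carried collagen transcripts, which are markers of the mesenchymal class. All 10 mesenchymal markers were detected in it, with a summed level of 6118 CPM in WT and 9192 CPM in KO, against 543 and 1191 CPM in other glia and 19868 and 23073 CPM in mesenchymal-like cells. The most abundant was Col1a2, with 2164 CPM in the WT cluster and 3438 CPM in the KO cluster, beside 4378 and 5970 CPM in mesenchymal-like cells. In WT, Col3a1 was at 1909 CPM beside 3722 CPM and Col1a1 at 1709 CPM beside 4029 CPM. Dcn, at 58.1 and 73.4 CPM beside 3095 and 3042 CPM in mesenchymal-like cells, and Pdgfra, at 2.08 and 3.34 CPM beside 96.8 and 102 CPM, were far lower than in mesenchymal-like cells, although WT Dcn was higher than in other WT glia (18.3 CPM). Fbln1 was lower than in other glia, at 16.6 CPM beside 47.0 CPM in WT and 20.03 CPM beside 84.9 CPM in KO. Lum (101.7 and 20.9 CPM), Dpt (8.30 and 2.61 CPM) and Twist2 (22.8 and 6.96 CPM) were higher than in other glia in WT. In KO neither Lum (63.4 and 67.0 CPM) nor Dpt (20.03 and 25.7 CPM) was higher. The melanoblast markers summed to 535 CPM in the WT cluster (10 of 10 detected, Ptgds highest at 212 CPM) and 287 CPM in the KO cluster (9 of 10, Gpnmb at 0, Ptgds highest at 120.2 CPM). The part of these transcripts in the levels of the 8 genes was not tested.

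Finer clustering gave a pair of clusters with promyelinating markers raised, which together hold more cells than the Sostdc1-led cluster above. At a Leiden resolution of 2, a setting taken up for these levels after seeing the data, a Lect1-led cluster (73 WT and 13 KO cells) with 5 of 13 promyelinating markers raised stood beside a smaller Sostdc1-led cluster (58 WT and 46 KO cells) with 8 of 13. In the former, WT cells held Mbp at 295 CPM and KO cells at 149.8 CPM, and in the latter at 736 and 679 CPM. Pmp22 was at 663 and 424 CPM in the Lect1-led cells, while in the Sostdc1-led cells the WT level was 789 CPM and the KO level 1010 CPM. The log2 ratio of KO over WT in the Lect1-led cells was -0.98 (-1.99 to -0.10) for Mbp, -0.64 (-1.22 to -0.11) for Pmp22 and -1.27 (-2.22 to -0.43) for Cnp, with only 13 KO cells. The intervals of Mal, at -0.21 (-1.01 to 0.54), and of Pou3f1, at 0.39 (-0.66 to 1.35), held 0 there. Egr2 had 8 of its 9 WT UMIs and all 14 KO UMIs in the Sostdc1-led cells, with a ratio of 0.95 (-0.40 to 2.41). The mesenchymal markers summed to 4046 CPM (WT) and 8124 CPM (KO) in the Lect1-led cells, and to 7531 and 9773 CPM in the Sostdc1-led cells.

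Cell by cell, several of the 8 genes were often read together in the Sostdc1-led cluster. After each cell was thinned to 2000 UMIs, 70 of 108 WT cells there (64.8%, 55.0 to 73.8) and 37 of 57 KO cells (64.9%, 51.1 to 77.1) held at least 3 of the 8 genes. In the Pcdh20-led cluster the shares were 4.55% and 2.35%. In the Cpm-led cluster they were 31.0% (15.3 to 50.8) and 12.1% (4.99 to 23.3), which overlap. Over all glial-like cells, 102 of 409 WT cells (24.9%, 20.8 to 29.4) and 50 of 246 KO cells (20.3%, 15.48 to 25.9) held at least 3. No thinned cell had more than 5 of the genes, and none had all 8.

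Mbp and Pmp22 were often read in the same cells. Among thinned glial-like cells, a Pmp22 UMI was found in 71.8% of WT cells with Mbp (61.0 to 81.0) and in 43.2% of those without (37.8 to 48.8). In KO the shares were 76.1% (61.2 to 87.4) and 35.5% (28.9 to 42.6). Cnp was read in 55.3% of WT cells with Mbp and 29.9% of those without, and in 52.2% and 19.5% of KO cells. Mal paired less closely in WT, at 43.5% (32.8 to 54.7) and 36.1% (30.9 to 41.6), whereas the KO shares of 52.2% and 19.0% had separate intervals. Within the Sostdc1-led cluster the Pmp22 shares were 84.2% and 72.5% in WT and 90.9% and 66.7% in KO, and the Cnp shares 68.4% and 54.9% in WT and 63.6% and 45.8% in KO. The Mal shares there were 54.4% and 52.9% in WT and 66.7% and 45.8% in KO. Each of these pairs pointed the same way, with overlapping intervals, and the part of the cluster in the pairing was not tested.

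For most of these genes the shares among cells with and without a Pou3f1 UMI had overlapping intervals. In WT glia an Mbp UMI was seen in 14.1% of cells with Pou3f1 (7.95 to 22.6) and in 22.9% of cells without (18.3 to 28.0), and in KO glia in 11.5% (6.11 to 19.3) and 23.9% (17.2 to 31.8). The intervals of both pairs overlapped. Mal in KO glia was read in 14.4% of cells with Pou3f1 (8.30 to 22.7) and in 33.1% of cells without (25.4 to 41.5), which did not overlap. Within the KO Sostdc1-led cluster these shares were 30.8% (9.09 to 61.4) and 65.9% (50.1 to 79.5), which overlapped. Pou3f1 was highest in the Cpm-led cluster, where KO Mal was lowest (38.9 CPM). The part of the clusters in these pairs was not tested. In WT glia the Mal shares were 32.3% and 39.4%, with overlapping intervals. Cnp was read in 38.4% of WT cells with Pou3f1 and 34.2% of those without, and in 23.1% and 27.5% of KO cells. Pmp22 was read in 43.4% and 51.0% of WT cells and in 36.5% and 47.9% of KO cells, and the Cnp and Pmp22 intervals overlapped in both libraries.

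Cells with an Egr2 UMI were compared with other cells of the Sostdc1-led cluster. There were 8 such cells in WT and 10 in KO, with a median depth of 4160 UMIs over both libraries beside 3950 UMIs in the 155 cells without. Mbp was at 896 CPM in them (704 to 1122) and at 522 CPM in the others (469 to 578). Pmp22 was at 1206 CPM (982 to 1465) and 761 CPM (698 to 829), and both differences exceeded counting error over the pooled cells. Mal (549 and 358 CPM), Cnp (489.5 and 446 CPM) and Pou3f1 (95.5 and 173 CPM) had intervals that overlapped, as did Prx (11.9 and 35.8 CPM), which was lower in the cells with Egr2. Taken by library, the KO cells with Egr2 held Mbp at 919 CPM (677 to 1218) and those without at 509 CPM (424 to 606.5). In the 8 WT cells with Egr2 it was at 857 CPM (565 to 1247), whose interval overlapped that of WT cells without Egr2, at 528 CPM (463 to 599.8). Pmp22 likewise overlapped in WT, at 889 CPM (590.5 to 1284) and 739 CPM (662 to 823), and in KO it was at 1397 CPM (1095 to 1757) and 800.5 CPM (693 to 920.1). Both gaps thus exceeded counting error in KO alone, and KO cells were 10 of the 18 cells with Egr2 but 47 of the 155 without. At resolution 2, all 14 KO Egr2 UMIs lay in the smaller Sostdc1-led cluster. KO Mbp was at 679 CPM there and at 149.8 CPM in Lect1-led cells, and KO Pmp22 at 1010 and 424 CPM. The part of these finer clusters in the gaps was not tested.

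Across the libraries, 1 of the 5 genes with at least 50 glial UMIs was past 1.5-fold. Pou3f1 was at 194 CPM (316 UMIs) in WT glial-like cells and at 417 CPM (498 UMIs) in KO, 2.15-fold higher in the KO library, with a log2 ratio of KO over WT of 1.11 (0.90 to 1.31). Of all 5678 genes tested, 6.36% were at least 1.5-fold higher and 5.48% at least 1.5-fold lower in KO, beside 1 and 0 of the 5. The median log2 ratio of the 5 genes was -0.34 and that of all tested genes -0.03. The Pou3f1 call rests on the Cpm-led cluster, since the ratio was 0.45 without that cluster, 0.44 with equal weight to each cluster and 0.40 with KO clusters weighted as in WT, each below 1.5-fold. The first and the last of these settings were chosen after seeing the data. Of all KO glial Pou3f1 UMIs, 62.9% lay in the Cpm-led cluster, beside 26.6% in WT.

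Mbp, Mal and Cnp were each lower in KO glia by less than 1.5-fold. WT glia held Mbp at 218 CPM (196 to 242) and KO glia at 172 CPM (149.7 to 198), with a log2 ratio of -0.34 (-0.59 to -0.09). For Mal the levels were 229.8 and 169 CPM and the log2 ratio -0.44 (-0.70 to -0.19). For Cnp they were 256 and 178 CPM, and the ratio was -0.52 (-0.76 to -0.28). Without the Cpm-led cluster, where Mbp and Mal were low, the ratio was -0.073 for Mbp and -0.17 for Mal. Without the Sostdc1-led cluster it was -1.15 (-1.78 to -0.55) for Mbp and -1.10 (-1.50 to -0.71) for Mal, both past 1.5-fold. Thinning each cell to 2000 UMIs gave -0.65 for Mbp, while Cnp was at -0.62 by the mean over cells and at -0.63 without the cycling cluster, so that their side of 1.5-fold depends on the setting. Pmp22, at 401 and 387.5 CPM with a log2 ratio of -0.05 (-0.22 to 0.13), showed no difference detectable at this depth. Egr2 had a ratio of 1.09 (-0.22 to 2.48) from 9 and 14 UMIs, and Prx of -0.41 (-1.62 to 0.72) from 20 and 11, so neither difference was detectable.

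Within clusters, the myelin protein genes pointed different ways in the Sostdc1-led cluster and mostly below 0 in the others. Outside the Sostdc1-led cluster, the Mbp, Pmp22 and Mal ratios were below 0 in every cluster. Those of Cnp were too, except in cycling cells, at 0.42 (-0.48 to 1.31). Every Mbp and Pmp22 interval in these other clusters held 0. In the Sostdc1-led cluster, Mbp had a log2 ratio of KO over WT of 0.08 (-0.21 to 0.36) and Mal of 0.27 (-0.07 to 0.61). Pmp22 was higher in KO there, at 0.27 (0.04 to 0.50), and Egr2 had a ratio of 1.32 (0.01 to 2.71), just off 0. These readings depend on the clustering, since at resolution 2 Pmp22 was at 0.36 (0.08 to 0.63) in the Sostdc1-led cells but below 0 in the Lect1-led cells, and the Egr2 interval held 0. The mix of these finer clusters differed between the libraries. Cnp was at -0.32 (-0.65 to 0.01). In the Pcdh20-led cluster Mal was lower in KO by a log2 ratio of -0.69 (-1.24 to -0.15) and Cnp by -1.09 (-2.05 to -0.22). Mal in cycling cells was at -1.41 (-2.45 to -0.49), from 53 and 12 UMIs. This was the lowest ratio of any abundant gene and cluster with at least 20 cells per library. In the Grb14-led cluster, with only 16 KO cells, Cnp was at -1.05 (-2.23 to -0.06), from 84 and 9 UMIs. The Mbp, Pmp22 and Mal intervals held 0 there.

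Of the 4 clusters with at least 20 cells of each library, 3 had a Pou3f1 ratio above 0, and in 2 of them the interval lay off 0. The log2 ratio was 0.70 (0.20 to 1.20) in the Pcdh20-led cluster, 0.44 (0.09 to 0.81) in the Cpm-led cluster and 0.50 (-0.04 to 1.03) in the cycling cluster. In the Sostdc1-led cluster it was -0.26 (-0.82 to 0.28). The Grb14-led cluster, with 16 KO cells, was left out of this count by the minimum of 20 cells. The Pou3f1 ratio there was 1.09 (-0.33 to 2.38), with an interval that held 0. Keratinocyte markers, a class that also held Pou3f1, summed to 86.4 CPM in WT glia (8 of 9 detected, Dsp at 0) and 600.1 CPM in KO glia (9 of 9), with Krt10 the most abundant at 63.1 and 231 CPM. They lay between 514.5 and 640.1 CPM in every KO cluster, while Pou3f1 ranged from 133 to 1014 CPM across the same clusters, and their part in the ratio was not tested. The haemoglobin gene Hbb-bs was at 47.8 CPM in WT glia and 644.5 CPM in KO glia. Mast cell markers lay the other way, at 126 CPM in WT glia (5 of 8 detected, Cma1 highest at 66.8 CPM) and 26.8 CPM in KO glia (4 of 8, Cpa3 highest at 10.0 CPM), with Fcer1a, Ms4a2 and Tpsab1 at 0 in both and Mcpt4 at 0 in KO. Neutrophil markers summed to 29.4 CPM in WT glia and 208 CPM in KO glia (5 of 6 in each, Retnlg at 0), with S100a8 the most abundant at 11.6 and 105.5 CPM. In the Cpm-led cluster, adipocyte markers summed to 35.6 CPM in WT (2 of 7; Adipoq, Cidec, Plin1, Lpl and Pparg at 0, Fabp4 highest at 26.7 CPM) and 223.5 CPM in KO (5 of 7; Cidec and Plin1 at 0, Car3 highest at 123 CPM). Mesenchymal markers in the Pcdh20-led cluster summed to 268.5 CPM in WT (9 of 10 detected, Pdgfra at 0) and 1357 CPM in KO (10 of 10). In the Cpm-led cluster they summed to 516 and 1085 CPM. Neuron markers in the Sostdc1-led cluster summed to 16.6 CPM in WT and 126.8 CPM in KO (3 of 8 detected in each). The most abundant of these was the tubulin gene Tubb3, at 12.4 CPM in the WT cluster and 93.5 CPM in the KO cluster. The part of these transcripts in the KO over WT ratios was not tested either.

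**Figure D3:**
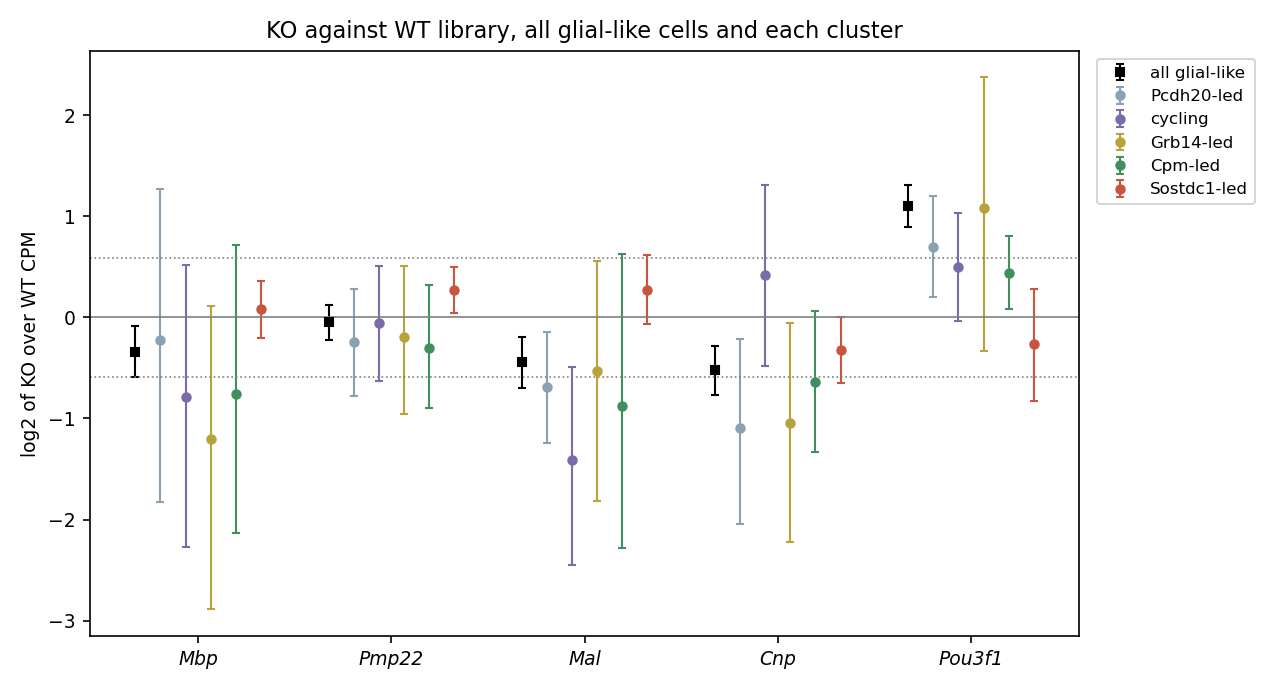
Log2 of KO over WT CPM (y axis) for Mbp, Pmp22, Mal, Cnp and Pou3f1 (x axis) in all glial-like cells (black squares) and in each glial-like cluster (coloured points), with exact conditional binomial 95% intervals as bars and dotted lines at 1.5-fold. Only Pou3f1 over all glial-like cells had an interval wholly past 1.5-fold, and the Grb14-led points rest on 16 KO cells.

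Other genes of myelination gave the setting for these ratios. Of 21 myelin structure genes, 14 had at least 50 glial UMIs, of which 1 was at least 1.5-fold lower in KO and 2 higher, with a median log2 ratio of -0.04. Over all tested genes 5.48% were lower and 6.36% higher, and in lists this short a count of 1 or 2 is near what such shares give. Gldn, which encodes gliomedin of the nodes, was the lower one at -1.26, from 75 UMIs in WT and 23 in KO. Cd59a, a complement regulator, was higher at 1.18 (0.75 to 1.63), as was Gjc3, a connexin gene chosen after its values were seen. The ratio was -0.01 for Arpc1b and -0.48 for the chaperone gene Cryab. Pllp and Ncmap were at 0 UMIs in glia of both libraries.

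Of 22 genes of myelin lipid synthesis, 12 had at least 50 glial UMIs, 1 lower and 2 higher in KO beside 5.48% and 6.36% of all genes, with a median log2 ratio of 0.27. The sulfatide synthesis gene Gal3st1 was lower at -0.64, and the sterol pathway gene Fdps was higher at 0.62, together with Fdft1 of the same pathway, chosen after its values were seen. Scd2, a fatty acid desaturase gene, had a ratio of 0.11 and the elongase gene Elovl1 of -0.52. Pmp2 had 0 UMIs.

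Among 25 regulators of myelination, 21 had at least 50 glial UMIs, with 1 lower and 0 higher beside 5.48% and 6.36% of all genes, and a median of -0.10. The lower gene was Nab2, a cofactor of Egr2, at -1.24 (-2.09 to -0.45). The ratio was 0.12 for Sox10, -0.22 for Zeb2, -0.10 for Hdac2 and -0.04 for Itga6. Of 20 genes of immature Schwann cells and inhibitors of myelination, 14 were counted, 2 lower and 1 higher beside the same 5.48% and 6.36%, with a median of 0.07. Id2 was lower at -0.62, and Pax3 was lower and Sox2 higher, both chosen after their values were seen. Jun had a ratio of 0.13, Gap43 of -0.18 and Ednrb of 0.42.

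The Sostdc1-led cluster was the highest of the 5 glial clusters for 4 of the 5 abundant members of the 8 in both libraries, and for many listed genes. It was highest for 12 of 14 myelin structure genes in WT and 9 of 14 in KO, and for 8 and 10 of 12 lipid synthesis genes. For regulators the numbers were 12 and 10 of 21, and for immature and inhibitory genes 6 and 5 of 14. Over all tested genes it was highest for 21.8% in WT and 22.4% in KO. Some of these listed genes, such as Mag, were also markers that named the clusters.

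Genes with the most similar levels were sought over 19 groups of at least 20 cells, which share 2 libraries and so are not independent. For Mbp these were Plekha4, Plekhb1 and Cadm4, with Pearson correlations of log2 levels of 0.959, 0.956 and 0.951. For Mal they included Kif21a at 0.936 and Cryab at 0.926. For Cnp they were Ttyh1, Olfml2a and Plekhb1, from 0.941 to 0.937. Plekhb1 was thus among the nearest 3 of both Mbp and Cnp. For Pou3f1 they were Lgi4, Ptprz1 and Chl1, from 0.961 to 0.948. For Pmp22, which is also made by mesenchymal-like cells, they were Itgav, Sfrp1 and Selk, from 0.907 to 0.898.

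The genes lie apart in the GRCm38 genome, with only Pmp22 and Cnp sharing chromosome 11 and Pou3f1 and Pou3f2 sharing chromosome 4. Pmp22 (ENSMUSG00000018217) spans 63128982 to 63159547 and Cnp (ENSMUSG00000006782) 100574904 to 100591729. Pou3f1 (ENSMUSG00000090125) spans 124656807 to 124660655 and Pou3f2 (ENSMUSG00000095139) 22482780 to 22488366 on the minus strand. Mal (ENSMUSG00000027375) lies on chromosome 2 from 127633226 to 127656695. Mbp is ENSMUSG00000041607. Egr2 (ENSMUSG00000037868) lies on chromosome 10 from 67535475 to 67542188 and Prx (ENSMUSG00000053198) on chromosome 7 from 27499324 to 27520214.

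RefSeq promoter windows for GRCm38.p6, each 250 bases before to 50 after a transcript start, were found for 6 of the 8 genes (all but Mbp and Pou3f1), with 13 windows in all. POU factors are known to bind the octamer ATGCAAAT, which was searched on both strands, and 1.74% of the 32851 windows of all genes held it. It was in 4 of the 13 windows, namely the window of Prx and 3 of the 5 overlapping or nearby windows of Egr2, which share 1 match. The EGR-type motif GCGTGGGCG was in 0 of the 13 windows and in 0.612% of all windows, and the SOX-type motif AACAAAG was in that of Cnp and in 5.85% of all. A match describes letters and not a bound site. The Prx window (chr7:27499074-27499373, plus strand) and an Egr2 window (chr10:67537619-67537918, plus strand, inside the annotated gene) are shown because they hold the octamer. The octamer is in capitals and begins 233 bases before the start of Prx and 127 before that of Egr2.
Prx: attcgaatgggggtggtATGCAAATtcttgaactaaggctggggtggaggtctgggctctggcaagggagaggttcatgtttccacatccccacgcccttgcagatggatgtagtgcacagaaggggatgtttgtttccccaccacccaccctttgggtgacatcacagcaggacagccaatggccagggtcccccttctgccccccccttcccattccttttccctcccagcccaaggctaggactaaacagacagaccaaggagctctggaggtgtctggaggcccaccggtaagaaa
Egr2: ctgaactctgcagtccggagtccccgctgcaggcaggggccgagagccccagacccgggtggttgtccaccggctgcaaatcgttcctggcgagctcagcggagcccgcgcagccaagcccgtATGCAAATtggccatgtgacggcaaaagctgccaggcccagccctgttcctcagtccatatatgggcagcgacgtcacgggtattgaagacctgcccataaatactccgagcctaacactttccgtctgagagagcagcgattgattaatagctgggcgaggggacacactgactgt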

How the data were processed

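UMI counts per gene and barcode were those deposited by the authors, made with Cell Ranger 2.2.0 on mm10. Barcodes with under 100 genes, over 40000 UMIs or over 10% mitochondrial UMIs were left out. Both libraries were clustered together in scanpy 1.11.5 (Python 3.11.15) from 1963 variable genes, 30 components, 15 neighbours and Leiden resolution 1. The 111 genes held out were the 8 genes, the 4 myelin lists, and genes of sex, the HIRA complex, histone H3.3 and the transgenes. Markers that name clusters were held out only where they are also in these lists. Clusters were named by marker lists. Cell numbers differ slightly from the study's own. Scrublet called 15 cells doublets (9 WT, 6 KO), which were kept and left out in an alternative. Levels are UMIs summed over a group per 1000000 UMIs of that group. TMM (edgeR 4.0.16) and size factors (DESeq2 1.42.0, R 4.3.3) were alternatives. Named from each list were genes among the 4 with most glial UMIs and any gene past 2-fold with at least 50 UMIs. The genes and lists were chosen with earlier results of these data known. The calculations were tested on simulated data.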

Additional observations from a re-analysis of the deposited data

How the results depend on the processing

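Of 160 values under other settings, 136 stayed within the interval or range of the reported value, 24 did not and 0 reversed a called direction. Equal cluster weights gave a Pou3f1 log2 ratio of 0.44 and 0 genes past 1.5-fold higher in KO, beside 7.24% of all genes. Thinning to 2000 UMIs gave -0.65 for the Mbp ratio, 1 gene past 1.5-fold lower (Mbp; 7.26% of all genes), 142 CPM for KO Mbp and 169 CPM for WT Pou3f1. The mean over cells gave 1 gene lower (Cnp; 6.87% of all genes), and without the cycling cluster the Cnp ratio was -0.63, also past 1.5-fold. A minimum of 10 UMIs gave 2 genes higher, by construction because Egr2 was then counted, beside 14.6% of all genes. In the Sostdc1-led cluster, cells with at least 3 of the genes were 83.6% in WT and 93.0% in KO with all UMIs and 77.2% and 78.4% at 3000 UMIs, since deeper cells show more genes.

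Other settings were chosen after seeing the data. Without the Sostdc1-led cluster the log2 ratio was -1.15 for Mbp, -0.25 for Pmp22, -1.10 for Mal and 1.34 for Pou3f1, with 2 genes past 1.5-fold lower beside 6.97% of all genes, and 6.88% higher. Without the Cpm-led cluster it was -0.073 for Mbp, -0.17 for Mal and 0.45 for Pou3f1, with 0 genes higher beside 5.73% of all. KO clusters weighted as in WT gave 0.40 for Pou3f1 and 0 genes higher, beside 6.18% of all. At Leiden resolution 2, Pmp22 in the smaller Sostdc1-led cluster was at a log2 difference of 1.28 over other WT glia, among which the Lect1-led cells were then counted. Except where stated, the cause was not tested.

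No paired analysis was possible because each genotype has 1 library. Genotype, sex and library vary together. Depth limits Egr2, Prx and Pou3f2 most, since they had few glial UMIs, and the Grb14-led cluster had 16 KO cells.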
